A study of Mus musculus with 6 samples.

Results

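Potassium channel genes were read on 6 single-colour arrays of primary mouse lung fibroblasts, as all genes whose 1 annotated symbol starts with Kcn. They were 90 of the 22180 genes measured. Where a gene had several probe sets, which held for 7 of the 90, the one with the highest mean over the 6 arrays stood for it. The cells came from the lungs of adult mice of mixed strain and the genotype UBCCreERT/RSmoM2. In these mice the tamoxifen-dependent recombinase CreERT, driven by the broadly active ubiquitin C promoter, switches on SmoM2, a form of the hedgehog signal transducer Smoothened that is always active. Vehicle was given to 3 wells and 4-hydroxytamoxifen (4OHT), the active form of tamoxifen, to the other 3 at 1 µg/ml, both for 48 h. Vehicle cells carried the same alleles, so the drug, the activated recombinase and the activated SmoM2 cannot be told apart between the groups. Cells were passaged no more than 3 times, and per the labels freshly isolated cells under 1 genotype number were divided among the wells, with nothing said of separate animals. A p-value here is thus set against a spread among wells that may be technical, and precision is limited by having 3 arrays per group.

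Potassium channels let potassium leave the cell along its gradient and so hold the membrane potential negative, which in fibroblasts and smooth muscle bears on calcium entry, contraction and division. Pore proteins fall into families. Voltage-gated pores open on depolarisation, silent voltage-gated subunits only modify other pores, calcium- or sodium-activated pores answer to those ions, inward rectifiers set the resting potential, and two-pore-domain channels carry a leak current. Auxiliary subunits form no pore and tune its gating or traffic.

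By their symbols, 26 of the 90 genes were classed as voltage-gated pores, 10 as silent voltage-gated subunits and 8 as calcium- or sodium-activated pores. Kcnu1 was among these 8 by its symbol alone. Another 14 were classed as inward rectifiers, 13 as two-pore-domain channels and 16 as auxiliary subunits. The other 3 were Kcnrg, a regulator gene, and the antisense RNA genes Kcnd3os and Kcnq1ot1.

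The arrays carried no detection call that was used here, so the log2 levels of 1425 genes for odorant, pheromone and bitter taste receptors, which fibroblasts are not known to use, served as a gauge of dim signal. Their median was 4.16 and their 95th percentile 6.46, and a gene was called bright when its mean over the 6 arrays lay above that 95th percentile. 50 of the 90 potassium channel genes (55.6%) were bright, against 64.8% of all genes. The limit cut through a dense part of the list: Kcna10 (6.57) and Kcna2 (6.59) lay just above it and Kcnj3 (6.45) and Kcnj12 (6.44) just below. At the 99th percentile of the receptor genes, 7.47, 22 of the 90 remained above. Some receptor genes lie above the limit by its definition, so brightness says that a probe set read above most of them. It does not show that the transcript was present. Levels of different probe sets depend on their probes, so brightness does not rank the genes either.

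By class, 15 of 26 voltage-gated pores were bright, and 7 of them lay above the stricter limit, namely Kcna4, Kcna6, Kcnc4, Kcnd1, Kcnh1, Kcnh2 and Kcnq5. Kcna4 and Kcnd1 encode pores of fast-inactivating currents and had means of 10.40 and 8.88. Of the 10 silent subunits 6 were bright, with Kcns3 alone above the stricter limit. Among calcium- or sodium-activated channels 6 of 8 were bright, and Kcnn1, a small-conductance calcium-activated pore, and Kcnt2, a sodium-activated pore, lay above the stricter limit. The inward rectifiers split evenly, 7 bright of 14, and the pores of ATP-sensitive channels, Kcnj8 and Kcnj11, were the 2 above the stricter limit. 7 of 13 two-pore-domain genes were bright, with Kcnk1, Kcnk6 and Kcnk15 above the stricter limit. The auxiliary subunits were bright in 8 of 16 cases, and Kcnab1, Kcnab2, Kcne1l, Kcne4, Kcnip3 and Kcnmb1 lay above the stricter limit. Kcnq1ot1 was the bright one among the remaining 3.

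**Figure D1:**
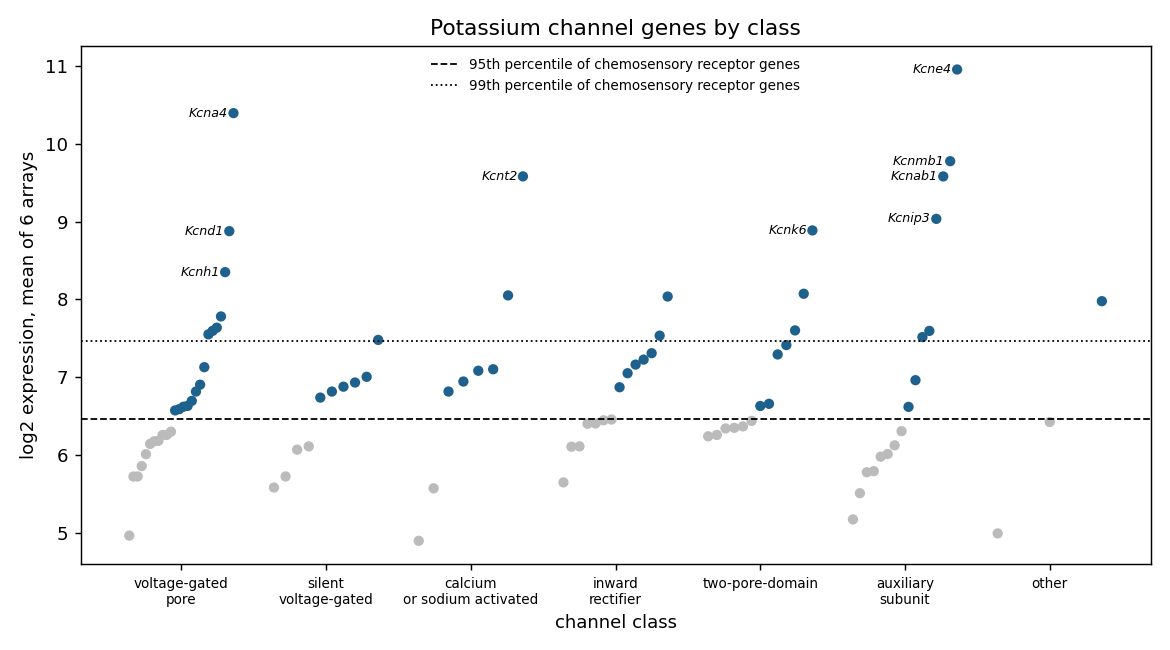
Log2 expression (mean of 6 arrays, vertical axis) of each of the 90 potassium channel genes, a point per gene, by channel class (horizontal axis; within a class genes are sorted by level). Blue points are bright and grey points dim, and the dashed and dotted lines mark the 95th (6.46) and 99th (7.47) percentiles of the chemosensory receptor genes; most bright members lie between 6.5 and 8, and Kcne4 and Kcna4 are the points above 10.

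Fibroblast markers were bright without exception, 10 of 10, among them Col1a1, Col1a2, Pdgfra and Dcn. The culture also gave signal for all 11 markers of smooth muscle and pericytes, and markers of other cells were bright in part. These counts stand beside the 64.8% of all genes that were bright. Of 8 epithelial markers 4 were bright, Krt8, Krt18, Aqp5 and Cdh1, and Epcam, Sftpc, Scgb1a1 and Foxj1 were below the brightness limit. Of 7 macrophage markers 3 were bright, Cd68, Csf1r and Marco, and Ptprc, Adgre1, Mrc1 and Itgax were below it. The endothelial markers Cdh5, Kdr and Pecam1 were bright, 3 of 7, and Tek, Emcn, Cldn5 and Vwf were below it. Of the 5 measured markers of neurons and Schwann cells 4 were bright, Syt1, Rbfox3, Stmn2 and Sox10, Snap25 was below the limit, and none was called.

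The comparison of 4OHT with vehicle wells asked which of these channels changed over 48 h. With limma and Benjamini-Hochberg adjustment over all 22180 genes, 6 of the 90 potassium channel genes (6.67%) passed an adjusted p under 0.05, against 12.0% of all genes. All 6 were bright. They made up 12% of the 50 bright members, against 17.2% of the 14376 bright genes. 4 fell, which were Kcnmb1, Kcnj8, Kcnh1 and Kcnab1, where 6.62% of all genes and 9.56% of bright genes were lower. 2 rose, which were Kcnq1ot1 and Kcnt2, where 5.38% of all genes and 7.59% of bright genes were higher. The median log2 fold change of the 90 genes was -0.01, and that of all genes was also -0.01. The values of the 2 groups did not overlap in 19 of the 90 genes (21.1%), against 32.7% of all genes, and in 15 of the 50 bright ones, against 43.4% of bright genes. No member was called higher when the first or the third vehicle well, or the first or the second 4OHT well, was left out. Without vehicle replicate 2, 1 was called higher. Without 4OHT replicate 3, 3 were, the third being the dim inward rectifier Kcnj1. The number called lower was 2 without 4OHT replicate 1 and 3 to 5 without any other array.

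**Figure D2:**
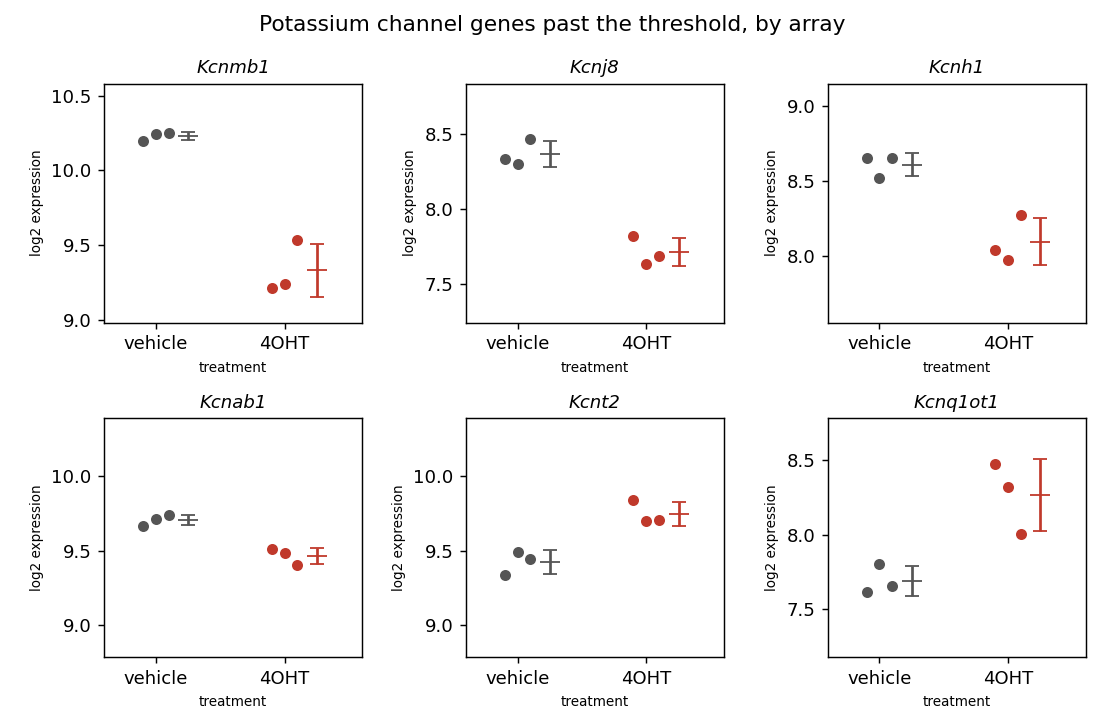
Log2 expression on each array (points) for the 6 potassium channel genes past the threshold, with the group mean and SD beside the points (n = 3 per group); each panel spans the same range of 1.6 on the log2 scale. Vehicle and 4OHT values do not overlap in any of the 6 panels, and Kcnmb1 shows the widest gap, from 10.23 to 9.33.

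The stretches before the start sites of 3 of these genes are shown because they differ in make-up among genes that moved: Kcnmb1 fell most, Kcnh1 is the voltage-gated pore that fell, and Kcnq1ot1 rose most. They are the 250 bases before the start in RefSeq (GRCm38.p6), at chr11:33962763-33963012 (plus strand), chr1:192190527-192190776 (plus strand) and chr7:143296548-143296797 (minus strand), read 5′ to 3′. Capitals mark matches, on either strand, to any of 6 motifs searched: the CCAAT box by those letters, the GC box as GGGCGG, the TATA box as TATAAA, the cell cycle homology region as TTTGAA, the E-box as CACGTG and the CArG box by name. No match of one overlapped that of another.
Kcnmb1: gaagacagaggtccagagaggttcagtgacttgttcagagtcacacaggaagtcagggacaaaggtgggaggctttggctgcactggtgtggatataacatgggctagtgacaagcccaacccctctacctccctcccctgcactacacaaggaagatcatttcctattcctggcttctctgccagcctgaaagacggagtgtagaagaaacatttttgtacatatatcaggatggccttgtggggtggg
Kcnh1: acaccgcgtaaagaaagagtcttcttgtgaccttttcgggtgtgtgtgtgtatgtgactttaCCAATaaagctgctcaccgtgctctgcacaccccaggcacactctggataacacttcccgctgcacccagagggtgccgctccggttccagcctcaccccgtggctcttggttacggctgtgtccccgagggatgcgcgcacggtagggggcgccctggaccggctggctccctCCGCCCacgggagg
Kcnq1ot1: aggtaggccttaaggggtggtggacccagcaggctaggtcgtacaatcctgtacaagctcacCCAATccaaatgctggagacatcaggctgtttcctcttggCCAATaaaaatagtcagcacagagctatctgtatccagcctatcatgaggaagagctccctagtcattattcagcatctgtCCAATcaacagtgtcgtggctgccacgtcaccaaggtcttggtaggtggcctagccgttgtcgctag
The Kcnmb1 window held 1 CpG and no match to these motifs, the Kcnh1 window 17 CpGs, 1 CCAAT box and 1 GC box, and the Kcnq1ot1 window 5 CpGs and 3 CCAAT boxes. With 1 window per gene, the one with the most CpGs, the CCAAT box stood in 33.9% of 27025 genes, the GC box in 34.4%, the cell cycle homology region in 15.9%, the TATA box in 12.5%, the E-box in 6.19% and the CArG box in 1.36%. Of the 70 members with a listed start, 35 held a GC box, 18 a CCAAT box, 4 a cell cycle homology region, 4 an E-box, 1 a TATA box and none a CArG box. Bright members had a median of 14 CpGs in the window (quartiles 6 and 19, n = 39), dim members 8 (5 and 15.5, n = 31) and all genes 6 (2 and 17). A match is a description of letters and not a site of binding.

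The auxiliary subunits held the largest fall. Kcnmb1 encodes the beta subunit that raises the calcium sensitivity of the large-conductance calcium-activated channel in smooth muscle. Its log2 expression was 10.20, 10.25 and 10.25 in vehicle wells and 9.21, 9.24 and 9.54 in 4OHT wells. All 3 vehicle wells lay close together, and the third 4OHT well was nearer to them than the others were. Kcnmb1 fell by 0.90 on the log2 scale, or 1.87-fold (95% interval -1.11 to -0.69, adjusted p = 0.00167, limma). Kcnma1, the pore gene of the same channel, had vehicle values of 7.16, 7.16 and 7.09 and 4OHT values of 6.85, 7.11 and 7.13. Its groups overlapped, and its log2 fold change of -0.11 did not pass (95% interval -0.30 to 0.09, adjusted p = 0.457, limma). The pore and its beta subunit were not tested against each other. For Kcnmb4, another beta subunit, it was -0.10 (adjusted p = 0.700).

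Markers of smooth muscle and pericytes moved with Kcnmb1. 7 of 11 measured markers were called lower and none higher, with a median log2 fold change of -0.35. Of all genes 6.62% were called lower, and of bright genes 9.56%. The log2 of the summed level of the markers was 16.33 to 16.35 in vehicle wells and 16.10 to 16.15 in 4OHT wells. Rgs5, a pericyte marker, fell by 1.19 on the log2 scale, Lmod1, an actin filament protein of smooth muscle, by 0.66, Notch3 by 0.55 and Myh11, the smooth muscle myosin heavy chain, by 0.54. None of the 11 was below the brightness limit. Acta2 (log2 fold change -0.14), Tagln (-0.17), Des (0.09) and Pdgfrb (0.10) did not pass. In bulk RNA, fewer cells of a type and less RNA per cell cannot be told apart. Which cells of the culture gave the marker signal was not tested, nor was their part in the channel results.

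Kcnab1, a cytoplasmic beta subunit that speeds the inactivation of voltage-gated channels, was the other auxiliary gene that fell. Its values were 9.67, 9.71 and 9.74 in vehicle and 9.51, 9.48 and 9.40 in 4OHT wells, a narrow gap without overlap. Kcnab1 fell by 0.24 on the log2 scale, or 1.18-fold (SE 0.048, adjusted p = 0.0238, limma), and leaving out any 1 of the 6 arrays ended the call, with an adjusted p between 0.0528 (4OHT replicate 1 out) and 0.0845 (vehicle replicate 2 out). Of its paralogs, Kcnab2 had a log2 fold change of -0.01 and Kcnab3 of -0.30 (95% interval -0.58 to -0.02, adjusted p = 0.162). Kcne4, whose product restrains voltage-gated currents, had group means of 10.97 ± 0.03 and 10.95 ± 0.06 (SD, n = 3), and the calcium-binding subunit gene Kcnip3 had 9.04 ± 0.05 and 9.03 ± 0.07. Kcne1l had a log2 fold change of 0.04. Over the 16 auxiliary genes the median log2 fold change was -0.02.

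Among the inward rectifiers, Kcnj8 fell. It encodes the pore of the ATP-sensitive potassium channel of vascular smooth muscle and pericytes, which opens when cell energy is low. Kcnj8 stood at 8.33, 8.30 and 8.46 in vehicle wells and at 7.82, 7.63 and 7.68 in 4OHT wells. The lowest vehicle well was well above the highest 4OHT well. The gene fell by 0.66 on the log2 scale, or 1.58-fold (95% interval -0.82 to -0.49, adjusted p = 0.00213, limma). Abcc9, the gene of the sulfonylurea receptor that joins Kcnj8 in this channel and its neighbour among protein-coding genes in RefSeq, fell too. Abcc9 read 9.31, 9.29 and 9.39 in vehicle and 8.78, 8.66 and 8.86 in 4OHT wells, a fall of 0.56 on the log2 scale (SE 0.064, adjusted p = 0.00287, limma). The pore and its regulatory subunit were thus both lower in all 3 4OHT wells than in any vehicle well. Both are also used as markers of pericytes, whose list is given above.

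The other ATP-sensitive pair did not pass. Kcnj11, the pore best known from pancreatic beta cells, had vehicle values of 7.55, 7.49 and 7.43 and 4OHT values of 7.51, 7.59 and 7.64 (log2 fold change 0.09, 95% interval -0.04 to 0.22, adjusted p = 0.356, limma). For its receptor gene Abcc8 the log2 fold change was 0.07 (adjusted p = 0.401). The difference between the Kcnj8 and Kcnj11 changes was not tested. Among the remaining bright rectifiers, Kcnj15 (log2 fold change -0.25, adjusted p = 0.0836) and Kcnj4 (0.24, adjusted p = 0.127) had groups that did not overlap and did not pass. Kcnj15 passed without 4OHT replicate 3 (adjusted p = 0.0174). Kcnj9, Kcnj10 and Kcnj14, at -0.13, 0.11 and 0.09, had overlapping groups. Without 4OHT replicate 3, 2 inward rectifiers were lower and 1 higher. The class had 7 positive and 7 negative fold changes and a median of 0.00.

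Of the voltage-gated pores, Kcnh1 was called lower and none was called higher. Kcnh1 encodes an ether-à-go-go channel that is best known from brain and is often expressed in tumours. Its values were 8.66, 8.52 and 8.65 in vehicle and 8.04, 7.97 and 8.27 in 4OHT wells, with the third 4OHT well nearest to the vehicle wells. It fell by 0.52 on the log2 scale, or 1.43-fold (95% interval -0.72 to -0.31, adjusted p = 0.0125, limma), a call that was lost without 4OHT replicate 1 (adjusted p = 0.0514). Cell cycle genes moved the same way: of 15 measured members, all of them bright, 13 were called lower and none higher. Of all genes 6.62% were called lower, and of bright genes 9.56%. The log2 of the summed level of the cell cycle list was 13.85 to 13.97 in vehicle and 13.06 to 13.15 in 4OHT wells. Ccna2, Plk1, Mki67 and Bub1, genes of cell division, had log2 fold changes of -1.58, -1.51, -1.46 and -1.41. The smallest called fall was that of Mcm2 (-0.36), and Pcna (0.01) and Tyms (-0.06) did not pass. The part of cell division in the Kcnh1 result was not tested.

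Kcnh2, the relative that carries the rapid delayed rectifier current of the heart, lay closest to the threshold without passing it. It read 7.91, 7.89 and 7.89 in vehicle and 7.68, 7.55 and 7.76 in 4OHT wells (log2 fold change -0.24, 95% interval -0.38 to -0.09, adjusted p = 0.0550, limma). It passed without 4OHT replicate 3 (adjusted p = 0.0369). Kcna4, with 10.47 ± 0.05 in vehicle and 10.33 ± 0.05 in 4OHT wells, and Kcnd1, with 8.95 ± 0.06 and 8.81 ± 0.06 (SD, n = 3), had groups that did not overlap, log2 fold changes of -0.13 and -0.14 and adjusted p-values of 0.155 and 0.161 (limma). Both encode fast-inactivating pores, and so does Kcnd3, which had the most positive log2 fold change of the class (0.33, 95% interval 0.05 to 0.60, adjusted p = 0.133). Kcnd3 values overlapped, at 7.15, 6.93 and 6.82 in vehicle and 7.12, 7.28 and 7.48 in 4OHT wells. Dpp6, an auxiliary protein of Kcnd channels, fell by 0.30 on the log2 scale (adjusted p = 0.0286), and was not called with the second or the third vehicle well (adjusted p = 0.0755 and 0.0611) or the second or the third 4OHT well (0.105 and 0.0759) left out. The other bright pores were Kcna2, Kcna3, Kcnc4 and Kcnh3, with log2 fold changes from -0.01 to 0.01, Kcna6 and Kcnh6, at 0.18 and 0.12, and Kcna7, Kcna10, Kcnq3 and Kcnq5, from -0.15 to -0.07. The class median was -0.01.

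Kcnt2 was the sodium-activated channel that rose. Its vehicle values were 9.34, 9.49 and 9.44 and its 4OHT values 9.84, 9.70 and 9.70, without overlap. The rise was 0.32 on the log2 scale, or 1.25-fold (95% interval 0.17 to 0.47, adjusted p = 0.0219, limma). It was not called with vehicle well 1 (adjusted p = 0.0654), vehicle well 3 (0.0552), 4OHT well 1 (0.0648) or 4OHT well 2 (0.0573) left out. For its relative Kcnt1 the log2 fold change was -0.06 (adjusted p = 0.818). The small- and intermediate-conductance calcium-activated pores Kcnn1, Kcnn3 and Kcnn4 had 0.09, 0.04 and -0.04, and none passed. Kcnn4, an intermediate-conductance pore known from proliferating fibroblasts and lymphocytes, had a 95% interval of -0.26 to 0.17. Its mean of 6.81 lay below the stricter limit of 7.47. RMA can compress fold changes at such levels, so the interval does not exclude a larger change in its RNA.

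No two-pore-domain gene passed with limma, and 3 of 13 had an unadjusted p under 0.05, or 23.1%, against 26.4% of all genes. Kcnk1, a weakly rectifying leak channel, had vehicle values of 8.03, 7.87 and 8.04 and 4OHT values of 8.12, 8.21 and 8.17 (log2 fold change 0.19, adjusted p = 0.102). Kcnk2, a leak channel opened by stretch, had 7.51 ± 0.11 and 7.32 ± 0.08 (SD, n = 3; log2 fold change -0.19, adjusted p = 0.149, limma). In both genes the groups did not overlap. Kcnk6, Kcnk4, Kcnk10, Kcnk12 and Kcnk15 had overlapping groups and log2 fold changes of 0.10, 0.02, -0.07, -0.10 and -0.14. The class median was -0.07. The 10 silent subunits did not pass either, with 1 unadjusted p under 0.05, against the same 26.4%. That was Kcns2 (log2 fold change 0.12, adjusted p = 0.173), and the bright members Kcng1, Kcng3, Kcns1, Kcns3 and Kcnv1 lay between -0.15 and 0.04.

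**Figure D3:**
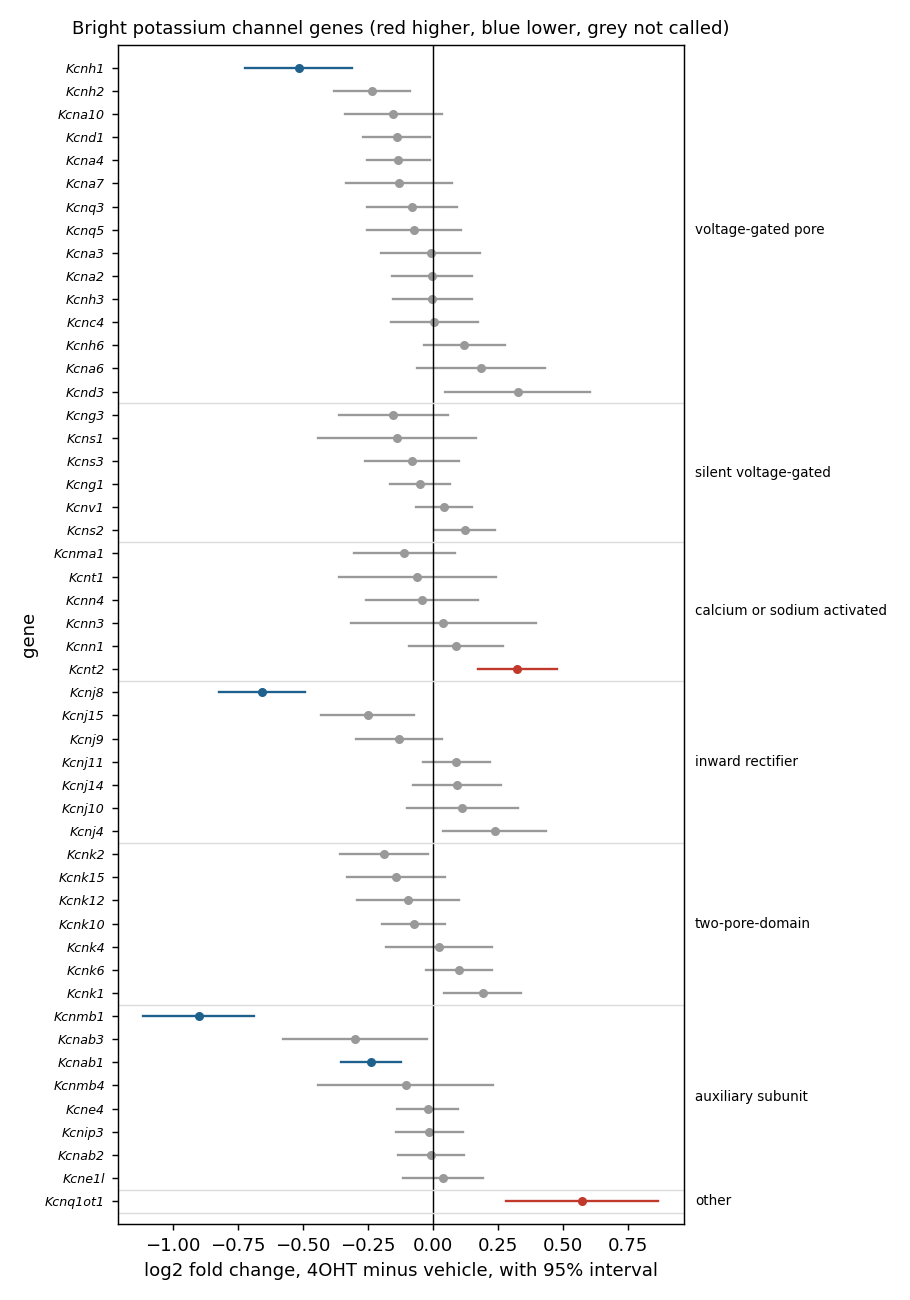
Log2 fold change (4OHT minus vehicle, points) with its 95% interval from limma (bars) for the 50 bright potassium channel genes, grouped by class. Blue marks the 4 genes called lower, red the 2 called higher and grey the 44 not called, whose values lie between -0.30 and 0.33.

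Kcnq1ot1, a long antisense RNA of the Kcnq1 locus that is made from the paternal chromosome and silences imprinted neighbours, had the largest rise. It encodes no channel and entered by its symbol alone. Its values were 7.61, 7.80 and 7.66 in vehicle and 8.47, 8.32 and 8.002 in 4OHT wells, with the third 4OHT well nearest to the vehicle wells. Kcnq1ot1 rose by 0.57 on the log2 scale, or 1.49-fold (95% interval 0.28 to 0.86, adjusted p = 0.0286, limma). The call ended when any 1 vehicle well was left out (adjusted p = 0.0881, 0.0597 and 0.0818 for wells 1, 2 and 3) and also without the first (0.0723) or the second (0.100) 4OHT well, and it held without the third (0.00808). Kcnq1 itself, the pore gene on the opposite strand, was below the brightness limit, with a log2 fold change of -0.08 (adjusted p = 0.565). Strand settings of the probe sets are not given in the sources used here, so signal from overlapping transcripts of the locus cannot be told apart.

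The 40 dim members had means from 4.89 to 6.45 and log2 fold changes from -0.35 to 0.26. None passed with limma (lowest adjusted p 0.108), and 3 of the 40 had an unadjusted p under 0.05, against 902 of 7804 dim genes in all (11.6%). Without 4OHT replicate 3, 1 passed, Kcnj1, a rectifier known from kidney. Without vehicle replicate 3, 2 auxiliary genes were called lower, Kcnmb1 and 1 of the dim members. They include Kcna5, Kcnd2, Kcnj2, Kcnj5 and Kcnk9, channels of heart or nerve. RMA compresses fold changes of dim probe sets, so a change of these genes was not detectable as well as one of the bright members.

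Genes of potassium handling with other names were read against the share called among all genes, 12.0%, and among bright genes, 17.2%. Of 18 measured partner subunits and other potassium channels, 15 of them bright, 3 fell and 1 rose, with a median log2 fold change of -0.06. Besides Abcc9 and Dpp6, the scaffold gene Dlg4 fell by 0.28, and Akap9, an anchoring protein gene of the Kcnq1 complex, rose by 0.46 (adjusted p = 0.0123 and 0.00857). The Dlg4 call was lost without vehicle replicate 2 (adjusted p = 0.0548, limma) or 4OHT replicate 2 (0.0515). Between 1 and 3 of the list were called lower with any 1 array left out. Of 18 measured pump and cotransporter genes, 14 of them bright, 3 fell and 1 rose. Fxyd5 and Fxyd1, small regulators of the sodium-potassium pump, fell by 0.44 and 0.32, the pump subunit gene Atp1b2 fell by 0.44, and the sodium-potassium-chloride cotransporter gene Slc12a2 rose by 0.47. Fxyd1 was not called with vehicle well 1 (adjusted p = 0.0529), vehicle well 2 (0.0591) or 4OHT well 2 (0.0613) left out.

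Calcium and cation entry channels, whose current is driven by the potential that potassium channels set, were lower in 6 and higher in 1 of 22 measured cases, 21 of them bright, with a median of -0.07. Of all genes 6.62% were called lower and 5.38% higher, and of bright genes 9.56% and 7.59%. Trpc6 and Trpv2 fell by 1.25 and 0.85, the low-threshold calcium channel gene Cacna1g by 0.41 and the stretch-activated channel gene Piezo2 by 0.27. Between 3 and 5 of the list were called lower with any 1 array left out. Piezo2 was not called without vehicle replicate 2 (adjusted p = 0.0504, limma) or 4OHT replicate 2 (0.0560). Piezo1, the other stretch-activated channel gene, was the one that rose, by 0.21 (adjusted p = 0.0279, limma). Its call held with 4OHT replicate 3 left out (adjusted p = 0.0361) and was lost with each other array left out (0.0631 to 0.106). Among 14 chloride and volume channel genes, Ano1 fell by 0.43 and Clcn3 rose by 0.27. Clcn3 was not called with vehicle well 2 (adjusted p = 0.0525), 4OHT well 1 (0.0504) or 4OHT well 2 (0.0596) left out. The remaining 12, with Lrrc8e (-0.16) and Best1 (0.15) of smallest p, did not pass.

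**Figure D4:**
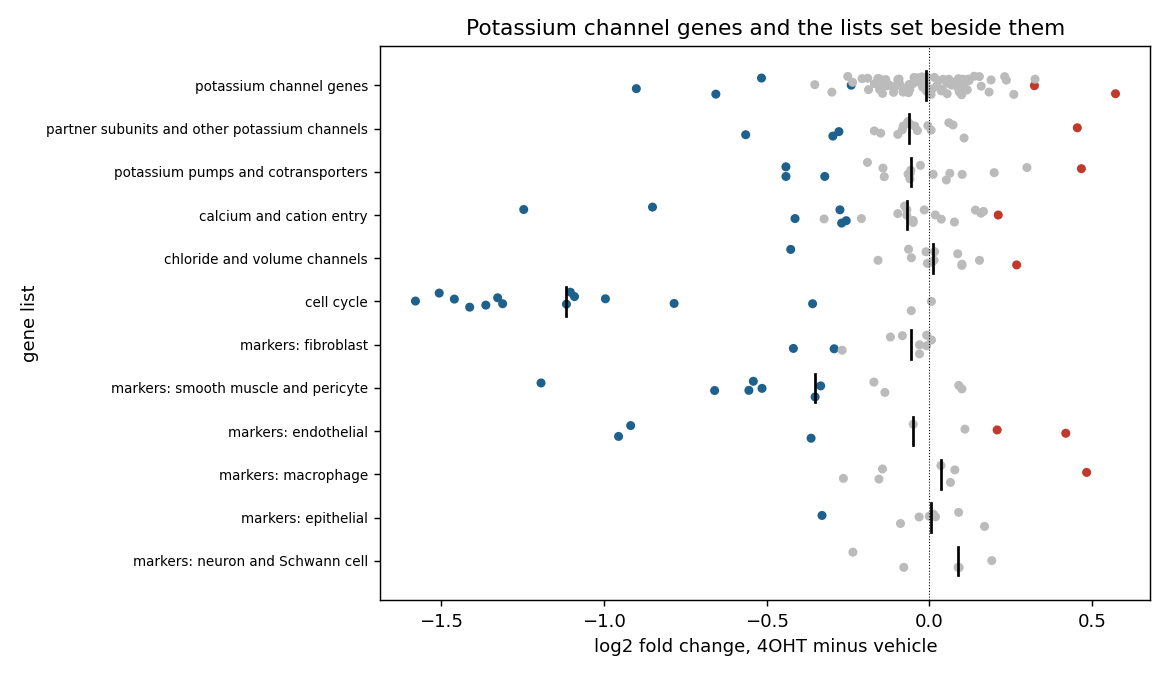
Log2 fold change (4OHT minus vehicle, horizontal axis) of each gene (points) of the potassium channel genes and of 11 further lists, with the list median as a black bar; red points were called higher, blue lower, grey not called, and vertical scatter within a row has no meaning. The potassium channel genes centre on 0 (median -0.01), the cell cycle list on -1.12 and the smooth muscle and pericyte markers on -0.35.

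Markers of other cells changed to different extents. Of the 7 endothelial markers, 3 were called lower and 2 higher. The endothelial genes Cdh5 and Emcn fell by 0.95 and 0.92 and Pecam1 by 0.36, while Tek rose by 0.42 and Kdr by 0.21. Of these the Emcn call was lost without vehicle replicate 3 (adjusted p = 0.0529) or 4OHT replicate 2 (0.0536) and the Pecam1 call without 4OHT replicate 1 (0.0655) or 4OHT replicate 2 (0.0741). Kdr had an adjusted p of 0.0494 and was not called with any 1 array left out (0.0842 to 0.139), nor with averaged probe sets (0.0505) or trended robust eBayes (0.0542). With any 1 array left out between 1 and 3 of the list were called lower and 1 higher. Among all genes 6.62% were called lower and 5.38% higher, and among bright genes 9.56% and 7.59%. The log2 of the summed level of the 7 endothelial markers was 9.81 to 9.93 in vehicle and 9.59 to 9.60 in 4OHT wells. Of the 7 macrophage markers Cd68, a lysosomal protein gene, rose by 0.48 and no other passed. Adgre1, Mrc1 and Csf1r had log2 fold changes of -0.26, -0.15 and -0.14, and Ptprc, Marco and Itgax 0.08, 0.07 and 0.04. With 1 array left out, 0 to 1 of the list was lower. The rise was thus not shared by the list. Its log2 summed level was 9.83 to 9.86 in vehicle and 10.02 to 10.11 in 4OHT wells, but Cd68, the brightest of the list, weighs most in that sum. Of the 8 epithelial markers Krt8 fell by 0.33 and no other passed, with a log2 summed level of 11.12 to 11.24 against 11.05 to 11.09. The fibroblast genes S100a4 and Col3a1 fell by 0.42 and 0.29, and the other 8 of the list, with a median of -0.06 over all 10, did not pass. Their part in the channel results was not tested.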

How the data were processed

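Total RNA of 6 wells was read on Affymetrix arrays. The deposited table holds log2 expression per probe set, made by the authors with oligo and RMA, per the submitters' processing notes, with no versions; RMA corrects background, quantile-normalizes and summarizes probes. No source used here gives the genome build. Of 41345 probe sets, 23521 had 1 symbol; 4 that name a Kcn gene with another were left out. RefSeq (GRCm38.p6) lists 98 Kcn symbols and holds all 90 members.

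Limma 3.58.1 in R 4.3.3 compared the groups (n = 3; lmFit, eBayes, 6.70 degrees of freedom, two-sided), adjusted over all 22180 genes; called means adjusted p under 0.05. Median and summed levels carry no test. Sums were taken on the unlogged scale, so the brightest genes of a list weigh most. Alternatives were a replicate block, median centring, repeated quantile normalization, bright genes only, averaged probe sets, trended robust eBayes, array weights, leaving out each array and other brightness limits; those for lists were chosen after seeing the data. The fit was tested on simulated data. Named were all called and all bright members, 2 on each side of the limit and up to 4 per list by smallest p. Other dim members, Kdr, Piezo1, Acta2, Tagln, Des, Pdgfrb, Abcc8, Kcnq1 and bright fibroblast markers were named after their values were seen. So were Mcm2, Pcna and Tyms. Members, lists, classes and motifs were chosen with earlier results of these data known; Kcnd3os was set among the non-channel genes later.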

Additional observations from a re-analysis of the deposited data

How the results depend on the processing

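The direction of the 6 called potassium channel genes was the same under all 13 alternatives of the fit. Kcnmb1 and Kcnj8 kept their calls in each (highest adjusted p 0.0110 and 0.0130, limma); Kcnh1 lost its call in 1, Kcnt2 in 5, Kcnq1ot1 in 6 and Kcnab1 in 7. With 1 array left out, 0 to 3 members were higher and 2 to 5 lower, and 1220 to 2326 of all genes were called; by class, 1 to 2 auxiliary genes, 0 to 2 voltage-gated pores and 1 to 2 inward rectifiers were lower, and 0 to 1 inward rectifier, 0 to 1 calcium- or sodium-activated gene and 0 to 1 of the remaining 3 were higher. The replicate block left 0 members higher (0 calcium- or sodium-activated, 0 of the remaining 3), 4 lower and 1568 genes called; Kcnab1 (adjusted p = 0.0811), Kcnt2 (0.0785) and Kcnq1ot1 (0.0509) lost their calls and Kcnab3 passed (0.0366). The well numbers were not taken as pairs, since deviations of same-numbered wells correlated at 0.06, -0.02 and 0.04, and not every well correlated best with its own number. Among bright genes only, 2 inward rectifiers and 2 voltage-gated pores were lower and 1 two-pore-domain gene, Kcnk1, higher; array weights gave 2 and 2 lower in the first pair of classes, and trended robust eBayes gave 2 voltage-gated pores lower and 4123 genes called. The added call was that of Kcnh2 or Kcnj15, and the cause was not tested. 22 members were bright with the 99th percentile as the limit and 22 with the median of all genes. Median centring, repeated quantile normalization and averaged probe sets changed no count of members called, and with averaged probe sets 48 were bright. Of the 7 members with several probe sets, 2 had probe sets whose log2 fold changes differed in sign. Signal near that of the receptor genes limits what can be said of the 40 dim members and of the bright members under the 99th percentile.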
